A study of Mus musculus with 12 samples.

Results

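Glutamate receptors and the scaffold proteins of the postsynaptic density were followed in hippocampal m6A profiles through 8 genes, namely Dlgap2, Shank1, Shank3, Dlg1, Magi2, Magi3, Grin2a and Grid1. Every unique peak annotated to one of these genes in the deposited list of age-associated m6A peaks was taken. This gave 9 of 529 listed peaks and 8 of 532 listed gene names, with 2 peaks in Dlgap2 and 1 in each other gene. RNA came from individual hippocampi of aged (20-month-old) and young (3-month-old) male C57BL/6 mice with no treatment named at either age, and 3 m6A immunoprecipitation (IP) libraries were made per age. The mice of both ages had been selected after a qPCR pre-check. Poly(A)-enriched, fragmented RNA was immunoprecipitated with an antibody to N6-methyladenosine (m6A), the commonest internal modification of mRNA, and sequenced (MeRIP-Seq). The values are IP reads alone, and the matched input was not analysed here. Such reads vary with both the methylation and the amount of a transcript. In whole tissue, fewer cells of a type and less RNA per cell cannot be told apart either.

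At an excitatory synapse, glutamate opens receptor channels in the postsynaptic membrane, and a protein lattice below that membrane, the postsynaptic density, holds the receptors in place. Membrane-associated guanylate kinases such as Dlg1 bind receptor tails, Dlgap proteins link them to Shank proteins, and Shank proteins reach the actin cytoskeleton. In the hippocampus this lattice supports synaptic plasticity, learning and memory.

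The peaks lay at different parts of their genes, as read from GENCODE M21 on mm10. Both Dlgap2 peaks (chr8:14306798-14307003 and chr8:14307057-14307278, plus strand) were intronic and 54 bases apart. The nearest annotated Dlgap2 exon ended 48772 bases upstream, and the next one began 74456 bases downstream. The Shank1 peak (chr7:44312637-44312837, plus strand) crossed the start codon of all 3 protein-coding transcripts, and the Magi3 peak (chr3:104219965-104220165, minus strand) ran from the start codon into the 5'UTR, with 199 of its 200 bases untranslated. The Dlg1 peak (chr16:31664052-31664257, plus strand) and the Grin2a peak (chr16:9994172-9994372, minus strand) lay wholly within 5'UTR exons of some transcripts. The Grid1 peak (chr14:34819973-34820173, plus strand) was annotated as 5'UTR, but 134 of its 200 bases lay outside the annotated exons, upstream of the GENCODE transcript start.

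The annotation of the remaining peaks depended on the transcript. The Magi2 peak (chr5:20702307-20702507, plus strand), which the list also assigns to the overlapping gene Gm29254, was coding over all 200 bases in Magi2-205 and Magi2-206 and untranslated over all 200 bases in Magi2-201, Magi2-202 and Magi2-203. The Shank3 peak (chr15:89557707-89557982, plus strand) was listed as exon, stop codon and 3'UTR. In the full-length Shank3-201 and Shank3-203 it covered 248 coding bases of exon 22, and the stop codon inside it belonged to the shorter Shank3-209 alone. Reads of Magi2 and Gm29254 cannot be told apart in this table.

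The sequences below, from the RefSeq copy of GRCm38 (the assembly of mm10), show what the antibody fraction covered in Dlgap2, the gene with the largest fold changes among the 8. They are written 5′ to 3′ on the transcript strand, and capitals mark GGAC, the core motif of m6A sites.
Dlgap2 upstream peak: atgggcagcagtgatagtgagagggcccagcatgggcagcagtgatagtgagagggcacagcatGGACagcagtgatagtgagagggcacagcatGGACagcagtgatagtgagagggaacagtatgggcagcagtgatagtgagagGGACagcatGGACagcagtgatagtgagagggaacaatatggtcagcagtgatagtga
Dlgap2 downstream peak: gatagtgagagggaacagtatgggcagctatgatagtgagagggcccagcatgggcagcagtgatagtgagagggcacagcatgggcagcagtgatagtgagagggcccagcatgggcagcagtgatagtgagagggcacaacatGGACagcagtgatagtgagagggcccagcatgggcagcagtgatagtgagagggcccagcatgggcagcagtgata

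Both peaks were cut from a single tandem repeat with a period of 31 bases. A run of 21 copies, 20 of them exactly 31 bases long, spanned 650 bases (chr8:14306719-14307368), and 0% of it is soft-masked as repeat in the assembly. The commonest copy occurred 8 times and had no GGAC, whereas the next commonest occurred 4 times and had the motif.
Commonest copy: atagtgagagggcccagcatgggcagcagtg
Next commonest copy: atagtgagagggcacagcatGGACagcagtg
GGAC was present in 7 of the 21 copies. It occurred 4 times in the upstream peak and once in the downstream peak, so the peaks differed in motif number within the same repeat. A base matched the base 31 positions further on at 79.9% of positions in the upstream peak and at 93.2% in the downstream peak. By the best such match at any spacing from 6 to 100 bases, the Dlgap2 peaks ranked 9 and 2 among the 529 listed peaks, and the next member, Magi2, ranked 53. The authors kept uniquely aligned reads, and several copies were identical to each other. The part of this in the counts of the Dlgap2 peaks was not tested.

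**Figure D1:**
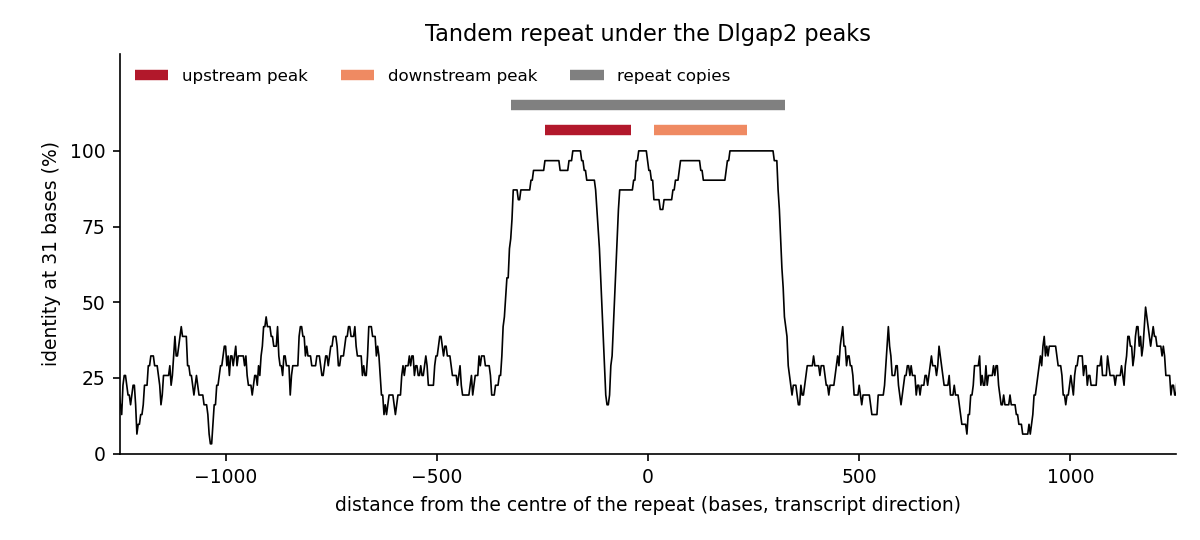
Tandem repeat under the Dlgap2 peaks. The line gives the percent of bases identical to the base 31 positions downstream, in windows of 31 bases, against the distance in bases from the centre of the repeat in transcript direction, and bars mark the upstream peak, the downstream peak and the 21 repeat copies. Identity is high across both peaks, dips at the 1 copy that is 30 bases long, and falls away on both sides of the repeat.

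The other genes are shown by short windows around the motif nearest to the centre of the peak. GGAC is in capitals for Shank1, Grin2a and Grid1.
Shank1 (chr7:44312722-44312747): gcgacaagcgaGGACgaggaaagaca
Grin2a (chr16:9994182-9994207): gggggtgatgcGGACagcgcgGGACa
Grid1 (chr14:34820129-34820154): ggagcggcccgGGACtgcaccgGGAC
The peaks of Shank3 and Dlg1 had no GGAC on the transcript strand and a single match to the wider DRACH consensus, in capitals (D is A, G or T, R is A or G, H is A, C or T, and GGAC followed by A, C or T also counts).
Shank3 (chr15:89557857-89557883): cgagcccagtgAAACCcgcatcgctgg
Dlg1 (chr16:31664184-31664210): gccgctcgcggGAACTttgcggcggag
Neither motif was found in the Magi3 and Magi2 peaks, for which the central 30 bases are given with CG in capitals.
Magi3 (chr3:104220051-104220080): CGggctgaggCGgggggtCGaCGgCGgCGc
Magi2 (chr5:20702393-20702422): gcctCGgaggCGgcCGaCGggaaggaggCG

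GGAC was thus present in 5 of 9 member peaks, against 362 of 529 listed peaks (68.4%), and DRACH in 7 of 9, against 450 of 529 (85.1%). On the opposite strand the counts were 3 of 9 for GGAC, against 52.9% of listed peaks, and 4 of 9 for DRACH, against 82.4%. The members outside Dlgap2 were rich in GC, from 67.5% in Shank1 to 86.5% in Magi3, which ranked 6 among the 529 listed peaks. The Dlgap2 peaks were 53.2% and 57.0% GC and had no CG dinucleotide.

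Among the listed peaks, GC content differed by direction, with a median of 73.5% in the 417 peaks higher in aged mice and 45.5% in the 112 lower ones. The median of the 9 member peaks was 74.2%.

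Recovered library size differed with age. Effective library sizes were fitted to the deposited mean abundance of each peak and are not counted reads. They were between 6157991 and 12534222 in aged libraries and between 12814321 and 16084217 in young libraries. The ages did not overlap, so recovered size cannot be told apart from age. Totals of listed reads did overlap, at 322474 to 697362 in aged and 465628 to 701150 in young libraries. Values in CPM below are reads scaled by 1000000 over these sizes. With these sizes, young library 2 stood apart from young libraries 1 and 3. It was then the highest young library at 398 of 529 listed peaks, including 9 of 9 members. It had the smallest recovered size of the young libraries but the most listed reads (701150, against 537133 and 465628 in young libraries 1 and 3). Its place among them therefore depends on the scaling. On the log2 scale its distance from the mean of the other young libraries had a median of 0.95 over the 417 higher peaks and of -0.49 over the 112 lower peaks. The counts of members that passed the main test and of members with separate ages are therefore also given without it. All listed peaks had been chosen by the authors for a difference between these same libraries, so no p-value here is independent evidence.

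After scaling to library size, the aged hippocampus gave more IP reads than the young hippocampus at Dlgap2. The downstream peak rose by the test used, and the upstream peak had the largest log2 fold change of the 9 without passing it. Point estimates were above 0 at all 9 member peaks with the recovered sizes and with totals of listed reads, and at 7 of 9 with TMM or DESeq2 size factors, where Dlg1 and Grid1 turned negative. Of the 529 listed peaks, 417, 415, 310 and 297 were above 0 under these scalings in the same order. In all, 1 of 9 member peaks passed at a Benjamini-Hochberg adjusted p of 0.05 over the 529 peaks (edgeR, quasi-likelihood), where 1.13% of listed peaks passed in that direction (6 higher, none lower). With the unadjusted p held to 0.05, 4 of 9 members were higher, against 91 higher and 48 lower of the 529. Without young library 2 the same test called 9 of 9 members, but it also called 77.5% of the listed peaks as higher and 103 as lower. A share of 9 of 9 is thus to be read against that background.

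The complete separation of ages was also counted. All aged libraries lay above all young ones in 4 of 9 members (both Dlgap2 peaks, Magi3 and Grin2a), against 32.1% of listed peaks, and in 9 of 9 without young library 2, against 410 of 529. With totals of listed reads, TMM or DESeq2 size factors the count was 2 of 9, against 54, 22 and 24 of 529 listed peaks. The median log2 fold change was 0.72 over the 9 members, against 0.59 over all listed peaks and 0.64 over those that were higher. Without young library 2 these medians were 1.10 over members and 0.96 over all listed peaks.

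**Figure D2:**
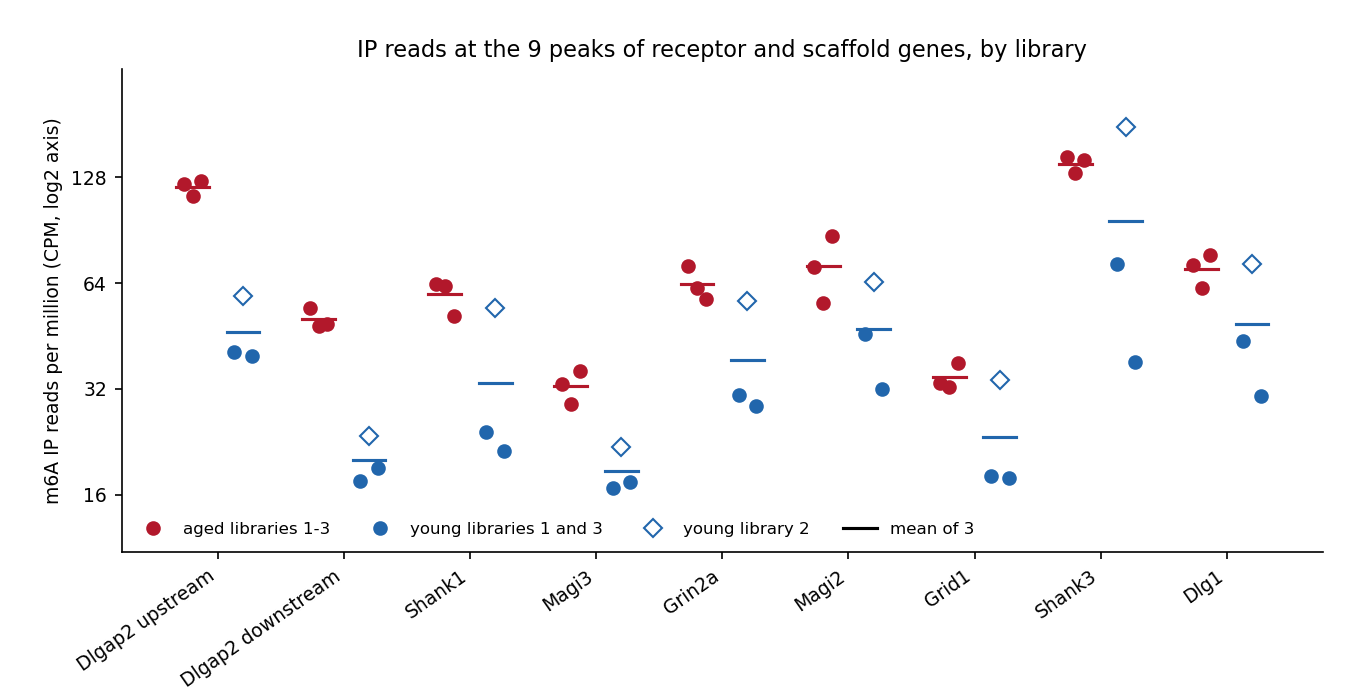
Scaled IP reads (CPM, log2 axis) at the 9 member peaks in each library. Red points are the 3 aged libraries, blue points young libraries 1 and 3, the open diamond is young library 2, and lines are means of 3 libraries. The aged points of both Dlgap2 peaks lie above all young points. With the recovered sizes used here, young library 2 is the highest young library at every peak.

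Dlgap2 encodes a guanylate kinase-associated protein that sits between the Dlg family and the Shank proteins. Its upstream peak had 1531, 699 and 1094 reads in aged libraries 1 to 3, against 609, 752 and 640 in young libraries 1 to 3. Scaled to library size these were 122, 114 and 125 CPM in aged libraries, against 40.8, 58.7 and 39.8 CPM in young libraries. The lowest aged library was therefore well above the highest young library. The mean was 120 ± 6.07 CPM in aged and 46.4 ± 10.6 CPM in young libraries (SD, n = 3 each), a log2 fold change of 1.37 (standard error 0.34, adjusted p = 0.0785 in the edgeR quasi-likelihood test).

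The downstream Dlgap2 peak had 680, 298 and 429 reads in aged libraries, against 261, 302 and 307 in young libraries. In CPM these were 54.3, 48.4 and 49.1 in aged libraries, against 17.5, 23.6 and 19.1 in young libraries. The groups were again apart, and young library 2 was again the highest of its age. The mean was 50.6 ± 3.20 CPM in aged and 20.1 ± 3.15 CPM in young libraries (SD, n = 3 each), with a log2 fold change of 1.34 (standard error 0.30, adjusted p = 0.0385 in the edgeR quasi-likelihood test).

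Which of the Dlgap2 peaks passed depended on the test and the scaling. By edgeR's likelihood ratio test both passed (adjusted p = 0.00748 upstream and 0.00428 downstream), where 2.08% of listed peaks were called higher. DESeq2's Wald test also called both (adjusted p = 0.00202 upstream and 0.0022 downstream), again with 2.08% of listed peaks called higher. With totals of listed reads, TMM and DESeq2 size factors, by contrast, the upstream log2 fold change fell from 1.37 to 0.87, 0.76 and 0.74. The downstream one fell from 1.34 to 0.81, 0.69 and 0.67. With these scalings the upstream peak passed edgeR's quasi-likelihood test (adjusted p = 0.0432, 0.0343 and 0.0494) and the downstream peak did not (adjusted p = 0.0514, 0.0577 and 0.0887). Neither passed without any 1 aged library or without young library 1 (the downstream peak had adjusted p = 0.315, 0.19, 0.14 and 0.362). Both passed without young library 2 (adjusted p = 3.09e-05 upstream and 6.00e-05 downstream), where 410 of 529 listed peaks were called higher and 103 lower. Both also passed without young library 3 (0.0136 and 0.0125), where 14 of 529 were called higher and 0 lower. Since RNA fragments can reach across the 54 bases between the Dlgap2 peaks, these are not replicates. Their summed reads gave a log2 fold change of 1.36 (standard error 0.35, adjusted p = 0.0953 in the edgeR quasi-likelihood test over 528 peaks).

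The Shank proteins are the large scaffolds of the density that join Dlgap proteins to Homer and the actin cytoskeleton. At the start codon of Shank1, aged libraries had 63.6, 62.8 and 51.7 CPM, against 24.1, 54.5 and 21.3 CPM in young libraries. Young library 2 lay above aged library 3, so the ages overlapped. The means were 59.4 ± 6.64 CPM in aged and 33.3 ± 18.4 CPM in young libraries (SD, n = 3 each), with a log2 fold change of 0.84 (standard error 0.38, adjusted p = 0.167 in the edgeR quasi-likelihood test). With totals of listed reads, TMM and DESeq2 size factors the log2 fold change was 0.43, 0.32 and 0.31.

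In the last coding exon of Shank3, aged libraries had 146, 131 and 143 CPM, against 72.5, 178 and 38.2 CPM in young libraries. Young library 2 was the highest of all 6 libraries, and the young values spread over the widest range of the 9 peaks, with a coefficient of variation of 75.6% against 5.54% in aged libraries. The log2 fold change was 0.54 (standard error 0.46, adjusted p = 0.274 in the edgeR quasi-likelihood test). Without young library 2 it was 1.34 (adjusted p = 0.000288 in the same test), in a fit that called 513 listed peaks in all. It was 0.38 without young library 1, 0.16 without young library 3, and between 0.51 and 0.59 without any 1 aged library. With totals of listed reads, TMM and DESeq2 size factors it was 0.21, 0.10 and 0.10. The Shank3 value thus moved most without young library 2, but also with the other young libraries and the scaling.

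Dlg1 (SAP97) is a membrane-associated guanylate kinase that binds AMPA and NMDA receptor subunits. Its 5'UTR peak had 71.9, 62.0 and 76.8 CPM in aged libraries, against 43.9, 72.6 and 30.7 CPM in young libraries. Young library 2 fell among the aged values. The log2 fold change was 0.52 (standard error 0.36, adjusted p = 0.214 in the edgeR quasi-likelihood test), against -0.03 under TMM and -0.04 under DESeq2 size factors.

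Magi2 and Magi3 are guanylate kinases of the inverted type, and Magi2 binds NMDA receptors and neuroligins at synapses. At Magi2, aged libraries had 71.0, 56.2 and 87.1 CPM, against 45.8, 64.3 and 31.9 CPM in young libraries. The ages overlapped through aged library 2 and young library 2, and the log2 fold change was 0.59 (standard error 0.36, adjusted p = 0.174 in the edgeR quasi-likelihood test). With TMM and DESeq2 size factors it was 0.01 and 0.003.

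At the start of Magi3, aged libraries had 32.9, 29.1 and 36.1 CPM, against 16.7, 21.9 and 17.4 CPM in young libraries. All aged values were above all young values, and young library 2 differed less from the other young libraries than at any other member, by 0.36 on the log2 scale. The means were 32.7 ± 3.50 CPM in aged and 18.7 ± 2.84 CPM in young libraries (SD, n = 3 each). The log2 fold change was 0.81 (SE 0.30, unadjusted p = 0.0164, edgeR quasi-likelihood adjusted p = 0.167), which did not pass. With totals of listed reads, TMM and DESeq2 size factors it was 0.28, 0.17 and 0.15, and the ages overlapped.

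Grin2a encodes GluN2A, an NMDA receptor subunit that carries the glutamate site of the channel. Its 5'UTR peak had 71.6, 61.9 and 57.8 CPM in aged libraries, against 30.8, 56.9 and 28.6 CPM in young libraries. The lowest aged library exceeded young library 2 narrowly and the other young libraries by far. The means were 63.7 ± 7.07 CPM in aged and 38.8 ± 15.7 CPM in young libraries (SD, n = 3 each), with a log2 fold change of 0.72 (standard error 0.35, adjusted p = 0.167 in the edgeR quasi-likelihood test). With totals of listed reads, TMM and DESeq2 size factors the log2 fold change was 0.27, 0.16 and 0.14, and the ages overlapped.

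Grid1 encodes GluD1, a delta-type receptor that joins pre- and postsynaptic membranes through cerebellins and neurexins. At its transcript start, aged libraries had 33.2, 32.5 and 38.0 CPM, against 18.0, 33.9 and 17.9 CPM in young libraries. Young library 2 lay among the aged libraries. The log2 fold change was 0.57 (standard error 0.33, adjusted p = 0.169 in the edgeR quasi-likelihood test), against -0.003 under TMM and -0.02 under DESeq2 size factors.

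The 95% intervals of the log2 fold change show how little 3 libraries per age fix these values. The interval ran between 0.65 and 2.1 for the upstream Dlgap2 peak and between 0.70 and 1.98 for the downstream one. For Shank3 it ran between -0.44 and 1.53, and it also held 0 for Grin2a, Magi2, Grid1 and Dlg1.

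**Figure D3:**
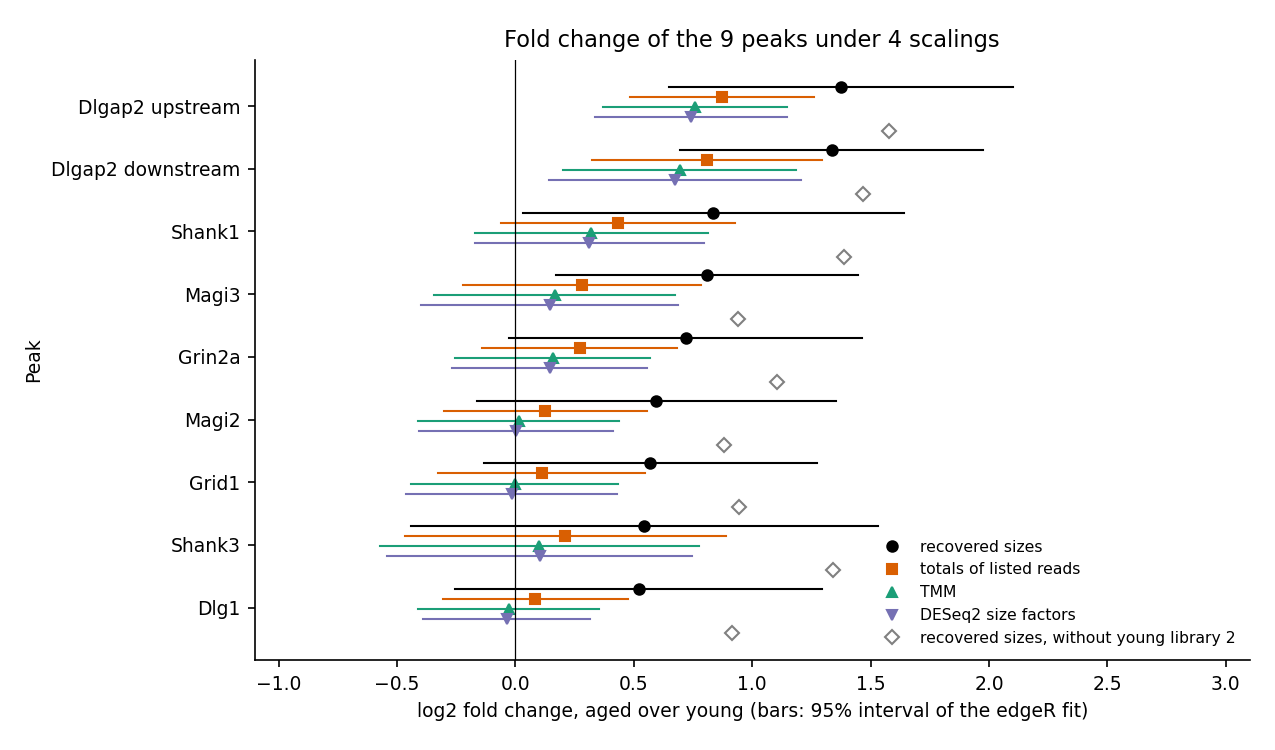
Log2 fold change (aged over young) of the 9 member peaks under 4 scalings of the libraries, with 95% intervals of the edgeR fit, and without young library 2 (open diamonds, no interval drawn). Both Dlgap2 peaks keep intervals above 0 under each scaling, while Dlg1 and Grid1 fall just below 0 with TMM and DESeq2 size factors.

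With the recovered sizes, spread within an age was narrower in aged than in young libraries. Coefficients of variation under the other scalings were not computed. The standard error of the log2 fold change was lower under them at every member. At Dlg1 it was 0.17, 0.17 and 0.15 with totals of listed reads, TMM and DESeq2 size factors, against 0.36. The coefficient of variation had a median over the 9 members of 10.7% in aged and 39.6% in young libraries, close to the medians over all listed peaks of 12.9% in aged and 38.6% in young libraries. The distance of young library 2 from the mean of young libraries 1 and 3 varied among members, from 0.36 in Magi3 and in the downstream Dlgap2 peak to 1.75 in Shank3 on the log2 scale. In order of GC content, it was 0.54 and 0.36 at the upstream and downstream Dlgap2 peaks, 1.26 at Shank1 and 0.94 at Grin2a. It was then 1.75 at Shank3, 0.98 at Dlg1, 0.91 at Grid1, 0.75 at Magi2 and 0.36 at Magi3. Over the list, its median was 0.95 in the 417 higher peaks, which had a median GC content of 73.5%. In the 112 lower peaks it was -0.49, at a median of 45.5% GC. The part of GC content in this distance and in the differences between ages was not tested.

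**Figure D4:**
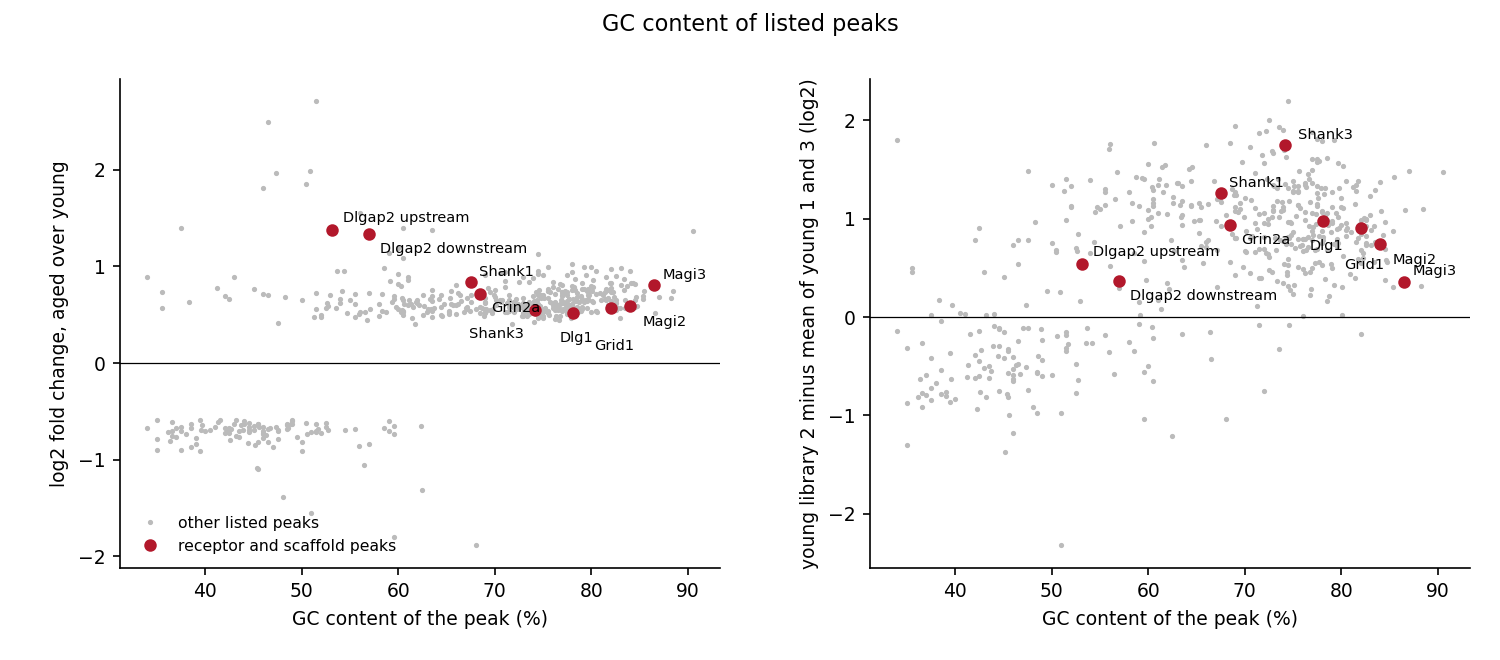
GC content of each of the 529 listed peaks (horizontal axis, percent) against the log2 fold change of aged over young (left) and against the log2 distance of young library 2 from the mean of young libraries 1 and 3 (right). Grey points are other listed peaks and red points the 9 members. Lower peaks gather at low GC content, and 7 of the 9 members lie at 67.5% GC or more. With the recovered sizes, all 9 have young library 2 above the other young libraries.

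Levels can be set side by side once divided by peak length, as CPM per kilobase (kb) of peak. In aged libraries the upstream Dlgap2 peak was highest (587 ± 29.6 CPM per kb), followed by Shank3 (509 ± 28.2 CPM per kb), and their ranges did not overlap. Magi2, Dlg1, Grin2a and Shank1 followed with mean levels from 357 to 297 CPM per kb, and neighbours in this order overlapped. The downstream Dlgap2 peak had 229 ± 14.5 CPM per kb (SD, n = 3), and Grid1 and Magi3 were lowest and overlapped at 173 and 163 CPM per kb. In young libraries Shank3 had the highest mean level (349 ± 264 CPM per kb) and every neighbouring pair in the order overlapped, while the upstream Dlgap2 peak was in place 4 with 227 ± 51.8 CPM per kb (SD, n = 3). A level per peak length depends on the yield of the pull-down at each site and is not a methylation level.

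The pattern over the 6 libraries was compared between peaks as the root mean square difference of log2 CPM after each peak was centred on its own mean. The closest pair among the members were the Dlgap2 peaks, at 0.0957. Dlg1 and Magi2 followed at 0.123, and Grin2a and Shank1 at 0.154. Among 487 other listed genes, the profiles most like Dlgap2 were those of Crebl2 (0.236), Neat1, a long non-coding RNA (0.242, a peak shared with Gm27533), and Heca (0.269), against a median of 0.463 over all these genes. Most like the mean profile of the other 7 members were Ddn, which encodes dendrin (0.0266, a peak shared with B130046B21Rik), Rab11fip5 (0.0567), a Rab11 effector of endosome traffic, and Ryr1 (0.0599), a calcium release channel, against a median of 0.253.

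The other genes of the pathway were looked up in the list. Of 26 glutamate receptor genes, 2 were listed, Grin2a and Grid1, and 0 passed edgeR's quasi-likelihood test. Of 34 scaffold genes of the density, 8 were listed with 9 peaks, of which 1 was called higher and 0 lower, with a median log2 fold change of 0.59, the same as over all listed peaks. The scaffolds outside the 8 genes were Iqsec2, an exchange factor for ARF GTPases, and Anks1b, an ankyrin repeat protein of the density. The exonic Iqsec2 peak (71.3% GC) had 170, 144 and 144 CPM in aged libraries, against 103, 151 and 63.8 CPM in young libraries. Its log2 fold change was 0.53 (edgeR quasi-likelihood adjusted p = 0.217), with young library 2 again among the aged values.

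Anks1b was the one listed scaffold whose value pointed down. Its intronic peak (46.3% GC, 100% soft-masked) had 6.30, 8.28 and 9.27 CPM in aged libraries, against 10.6, 10.1 and 19.0 CPM in young libraries. All aged values were below all young values. The log2 fold change was -0.74 (standard error 0.38, adjusted p = 0.167 in the edgeR quasi-likelihood test), which did not pass.

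Of 32 adhesion molecules and auxiliary receptor subunits, 0 were listed. Of 16 signalling enzymes of the density, 4 were listed and 0 passed, with log2 fold changes of 0.50 for Agap2, 0.68 for Psd, 0.66 for Rasgrf1 and 0.66 for Src. A gene that is not listed may have had peaks that the authors did not call differential.

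Marker genes of cell types were looked up in the same list. Excitatory neurons, inhibitory neurons and endothelium had 0 listed markers of 6, 6 and 3. Oligodendrocytes had 1 of 6, oligodendrocyte precursors 1 of 3, astrocytes 1 of 5, microglia 2 of 6 and choroid plexus 1 of 3, and none of their peaks passed edgeR's quasi-likelihood test. The log2 fold changes of these markers went in both directions. With the recovered sizes, values above 0 were found at the microglial genes C1qc (0.73, all aged above all young libraries) and Tmem119 (0.66), the oligodendrocyte gene Mobp (0.71) and the astrocyte gene Apoe (0.52). Values below 0 were found at the choroid plexus gene Cldn2 (-1.56, ages overlapping) and at 4 peaks of the precursor gene Gpr17, between -1.05 and -0.65 and with all aged below all young libraries. The part of such cells in the values of the receptor and scaffold genes was not tested. Levels of the remaining markers are not in a list of differential peaks, so the cell make-up of the libraries cannot be read from it.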

How the data were processed

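MeRIP-Seq of hippocampal poly(A) RNA was analysed from 3 aged and 3 young IP libraries. Per the submitters' processing notes and the study's methods, the authors trimmed reads (Trimmomatic 0.36) and removed rRNA and PhiX reads (SortMeRNA or Bowtie2 2.2.7). They aligned to mm10 (STAR 2.5.3a), kept uniquely mapped reads (SAMtools 1.3) and called peaks over input (MACS2 2.2.1). They then counted reads per peak (Subread 1.6.4) and annotated peaks (bedtools 2.25.0). For differential peaks the methods name edgeR's likelihood ratio test, with removal of unwanted variation (RUV) as an option. The strand setting of the counting is not given in the sources used here. The deposited table holds raw read counts per peak and library (862 rows, 529 unique peaks), only for peaks the authors called differential. Its log2 mean abundance over the 6 libraries was deposited by the authors from edgeR. Columns of the authors' own comparison (fold change, likelihood ratio, p-value and FDR) were not used.

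Effective library sizes were recovered from the counts and the deposited log2 abundance alone, with edgeR's average abundance (prior count 2), which then matched within 7.68e-07. Aged and young libraries were compared with glmQLFTest of edgeR 4.0.16 (quasi-likelihood, in R 4.3.3), two-sided, without covariate or filter, with Benjamini-Hochberg adjustment over 529 peaks at 0.05. Libraries of an age came from different mice, so p-values measure the spread between mice and library preparation. Sequences were read with pysam 0.24.0 from GRCm38, with starts counted from 0, and annotation from GENCODE M21. The members, gene lists and tests were chosen with earlier results of these data known. The text names all 8 members and the listed genes of the pathway lists, and for likeness the 3 genes closest in profile. The fit and the recovery of sizes were tested on simulated data. Alternatives were 3 other scalings (totals of listed reads, TMM, DESeq2 1.42.0 size factors), the likelihood ratio and Wald tests, a minimum mean of 100 reads, a residual factor as covariate, a replicate block, and leaving out 1 library at a time. The sum of the Dlgap2 peaks and the separation of ages without young library 2 were added after seeing the data.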

Additional observations from a re-analysis of the deposited data

How the results depend on the processing

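Scaling moved the list as a whole: totals of listed reads, TMM and DESeq2 size factors shifted log2 fold changes by a median of -0.46, -0.57 and -0.58. They gave 6 higher and 3 lower, 6 and 87, and 6 and 45 calls (9, 93 and 51 in all, against 6), a member median of 0.27, 0.16 and 0.14, and 2 of 9 members with separate ages each. With TMM and DESeq2 size factors Dlg1 was at -0.0287 and -0.0375 and Grid1 at -0.00277 and -0.0166. Under each of these scalings 1 member peak passed. The likelihood ratio and Wald tests called 2 members and 12 peaks each, and a minimum mean of 100 reads changed no count by over 1.5 times. With the residual factor as covariate (largest in young library 2 at -0.72 and young library 3 at 0.67), 9 members and 527 listed peaks passed, 416 higher and 111 lower; the factor was estimated from the same residuals. With the replicate block 0 members and 7 listed peaks passed, and the downstream Dlgap2 peak had adjusted p = 0.0621. The labels do not say whether equal replicate numbers pair the samples. Same-numbered libraries correlated at -0.192 to -0.0251 in their deviations, which with 3 libraries per age cannot decide it.

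With 1 library left out, 0 to 9 members (9 without young library 2, 2 without young library 3, 0 otherwise) and 4 to 513 listed peaks passed (14 without young library 3), and the member median ranged between 0.54 and 1.10. Without young library 2 the aged libraries lay above the young ones in 9 of 9 members, against 4 of 9 with all libraries. This was also so in 410 of 529 listed peaks, against 170 with all libraries. Starts counted from 1 left 5 members with GGAC, and 7 had DRACH. Depth was 179 reads or more at each member in each library.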
